A study of Mus musculus with 17 samples.

Results

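Class 3 semaphorins are secreted guidance cues, and the 10 genes described here are 5 of them (Sema3a, Sema3c, Sema3d, Sema3e and Sema3f), the co-receptors Nrp1 and Nrp2, and the signalling receptors Plxna1, Plxna2 and Plxna4. They were taken by symbol from a table of 24498 gene symbols, and all 10 passed the filter on low counts in every comparison. Gene expression had been measured by poly(A) RNA sequencing of dorsal hippocampus slices from mice that were wild type (WT) or lacked Acss2 constitutively (KO). By the study's methods, both genotypes came from homozygous matings among F1 offspring of heterozygous parents. The Acss2 enzyme turns acetate into acetyl-CoA. Every mouse had received, at 6 months of age, an intracranial injection, either of pathological tau isolated from the brains of people with Alzheimer's disease (Tau) or of the carrier, phosphate-buffered saline (PBS). By the study's methods, tissue was taken 6 months after the injection. Males of both genotypes were given either injection and females of both genotypes Tau alone, which made 6 groups and 17 libraries, with 3 libraries a group except for 2 in female WT Tau. There was no female PBS group, so the effect of tau could be measured in males only.

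Semaphorins of this class bind neuropilins, which have short cytoplasmic tails and pass the signal through plexins of the A type. Sema3a, held chiefly by Nrp1, and Sema3f, held chiefly by Nrp2, repel axons and shape dendrites and synapses, and in the hippocampus Sema3f with Nrp2 limits dendritic spines of dentate granule cells. Sema3e is the exception of the class, since it can bind the plexin Plxnd1 without a neuropilin.

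Libraries held 14183131 to 22463635 counts, and the 10 genes were counted with 26 reads (Sema3f in female KO Tau 324) to 6087 reads (Plxna4 in male KO PBS 751). Acss2 stood at 3.07 to 8.81 CPM (counts scaled to a common library total) in the 9 KO libraries and at 44.0 to 54.6 in the 8 WT libraries. Markers of hippocampal fields were present in every group, but their sums differed among libraries of 1 group. The sum of 8 dentate granule cell markers ran from 158 CPM in male KO PBS 752 to 684 CPM in male KO PBS 751. The sum of 8 neocortex markers was 831 and 231 CPM in the same libraries, and that of 7 striatum markers 564 and 110 CPM. Choroid plexus markers reached 4032 CPM in male KO Tau 713, against 25.3 CPM in the lowest library. No gene of these marker lists was at 0 in all libraries. In bulk tissue, fewer cells of a type and less RNA per cell cannot be told apart.

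On the GRCm38 assembly, Sema3d, Sema3a, Sema3e and Sema3c lay on the same strand of chr5:12383385-17730268, a stretch of 5.35 megabases that held 19 genes of the table. Sema3f was on chromosome 9, Nrp1 on chromosome 8, Nrp2 and Plxna2 on chromosome 1 and Plxna1 and Plxna4 on chromosome 6. All 10 are protein-coding. No member shared a stretch of 50 transcript bases with another member. Plxna1 had 7.06% of its 50-base stretches in common with 1 other annotated gene, the highest share among the members, and Sema3c, Sema3d and Sema3f had 0%. The exons of Plxna1 overlap an antisense gene, Gm26811, over 970 bases, and those of Plxna4 overlap Plxna4os3 over 110 bases. The reads were counted as reverse-stranded, while the kit named in the labels is not a directional one, and which of these describes the libraries could not be settled here. If the libraries are not stranded, reads of these partners cannot be told apart and reads from one of the strands were not counted.

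The RefSeq promoter table (GRCm38.p6) held a start site for 7 of the 10 members, and the 250 bases before it are printed for Sema3a, Sema3e and Nrp1, because these ligands and this receptor had their extremes in opposite libraries of the male KO groups. They lay at chr5:13396534-13396783, chr5:14025026-14025275 and chr8:128358823-128359072, all on the plus strand, and overlapped no annotated exon. The windows of Sema3a and Nrp1 lay inside the longer genes of the GENCODE annotation. Capitals mark the GC box, GGGCGG or its complement CCGCCC.
Sema3a: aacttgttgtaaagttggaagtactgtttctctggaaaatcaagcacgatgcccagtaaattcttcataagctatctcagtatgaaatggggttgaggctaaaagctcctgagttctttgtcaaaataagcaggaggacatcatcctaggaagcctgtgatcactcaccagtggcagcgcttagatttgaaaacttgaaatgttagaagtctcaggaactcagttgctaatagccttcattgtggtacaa
Sema3e: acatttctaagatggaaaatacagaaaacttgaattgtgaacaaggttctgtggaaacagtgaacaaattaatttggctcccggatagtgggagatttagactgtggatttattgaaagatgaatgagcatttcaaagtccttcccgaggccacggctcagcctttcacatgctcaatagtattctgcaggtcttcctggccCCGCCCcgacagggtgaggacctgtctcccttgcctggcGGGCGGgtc
Nrp1: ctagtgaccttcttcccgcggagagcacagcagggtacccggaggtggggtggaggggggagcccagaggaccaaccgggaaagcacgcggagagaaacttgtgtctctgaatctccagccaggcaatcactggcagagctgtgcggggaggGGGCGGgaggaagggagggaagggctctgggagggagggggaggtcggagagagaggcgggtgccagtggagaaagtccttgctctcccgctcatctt
The Sema3a window held no GC box and had a GC content of 40.8%. The Sema3e window held 2 GC boxes at 48.0% GC, and the Nrp1 window 1 at 64.4%, while the median GC content of all windows in the table was 52.4%. A GC box on either strand was found in 5 of the 7 members' windows (Nrp1, Nrp2, Plxna2, Sema3c and Sema3e) and in 32.7% of the 32851 windows of the table. CCAAT was found in 1 of the 7, Sema3d, and in 33.9% of all windows. TATAAA was found in 0 of the 7 and in 12.4% of all windows. An E-box, CACGTG, was found in 0 of the 7 and in 6.02%. A cAMP response element, TGACGTCA, was found in 0 of the 7 and in 1.55%.

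By the median per kilobase of exon, the receptors stood above the ligands, except that Sema3e stood above Nrp2. The median over the 17 libraries was highest for Plxna1 (19.8 CPM per kilobase), then Plxna4 (13.0) and Nrp1 (9.21). Plxna2 (7.61) and the most abundant ligand, Sema3e (7.27), followed. Nrp2 (3.77) and Sema3c (3.76) were at nearly the same level, and Sema3f (1.46), Sema3d (0.709) and Sema3a (0.615) were lowest. No neighbours in this order had separate ranges over the libraries, although Plxna1 stood above Plxna4, and Sema3e above Nrp2, in 17 of 17 libraries. Plxna2 exceeded Sema3e in only 9 of 17 libraries, and Nrp2 exceeded Sema3c in only 7 of 17. With the longest transcript in place of all exons, 5 of the 10 ranks moved, and Nrp1 came first. The neuropilins kept a narrow ratio, with Nrp1 at 2.19 to 3.15 times Nrp2 per kilobase. The ratio of Sema3a to Sema3e spanned 15.7-fold, from 0.0347 in male KO PBS 751 to 0.547 in male KO Tau 712.

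**Figure D1:**
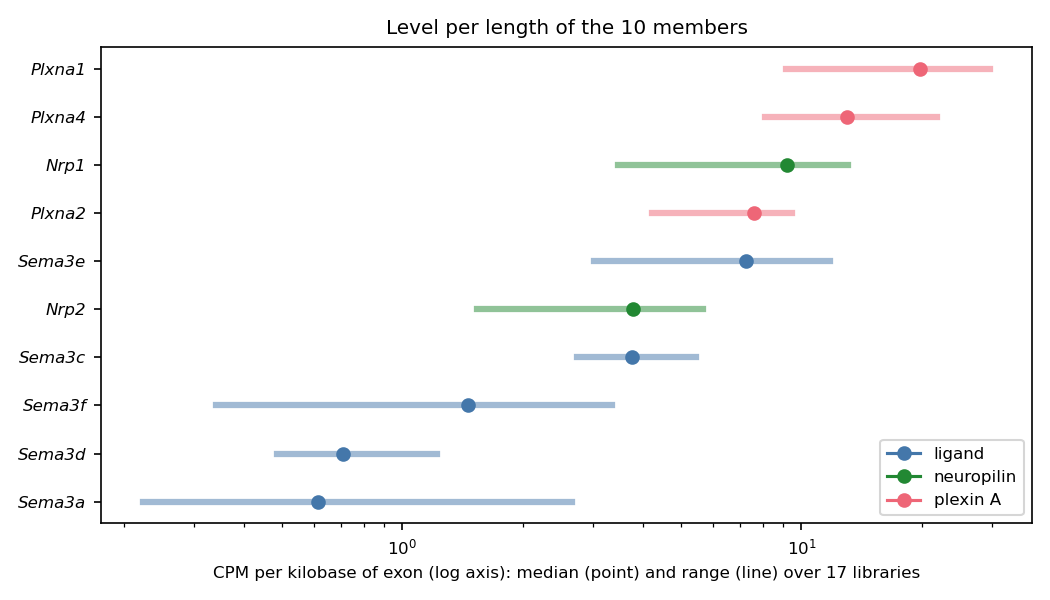
Level per length of the 10 genes. Each point is the median and each line the range of CPM per kilobase of exon over the 17 libraries, on a log axis, coloured by role. Plxna1 (19.8) and Plxna4 (13.0) had the highest medians and Sema3a (0.615) the lowest, and the ranges of neighbours overlapped.

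Sema3c was the only member called in the test for any difference among the 6 groups (quasi-likelihood F-test of edgeR with Benjamini-Hochberg adjustment over all genes, adjusted p = 0.0336), while 19.0% of the 15594 genes tested were called. It encodes a ligand that acts through both neuropilins, and it was highest in female WT Tau. It stood at 27.5, 25.8 and 31.6 CPM in male WT PBS (791, 792 and 793). It was at 24.9, 27.0 and 21.2 CPM in male WT Tau (771, 772 and 773). Male KO PBS had 19.6, 23.3 and 24.1 CPM (751, 752 and 753), all below the male WT PBS libraries. Male KO Tau (711, 712 and 713) had 27.1, 21.1 and 21.6 CPM, a range that overlapped those of the other male groups. The female WT Tau libraries (331 and 341) had 35.1 and 38.9 CPM, the highest values of the series, and female KO Tau (314, 324 and 325) had 30.5, 26.9 and 35.0 CPM. Group means were 28.3 ± 2.97, 24.3 ± 2.96, 22.3 ± 2.41 and 23.3 ± 3.34 CPM (SD, n = 3 each) in the male groups in that order, 37.0 ± 2.68 (n = 2) in female WT Tau and 30.8 ± 4.05 (n = 3) in female KO Tau. The other 9 members were not called, with adjusted p from 0.203 (Plxna2) to 0.691 (Sema3f). The call of Sema3c was lost when 1 of 7 of the 17 libraries was left out, with an adjusted p of 0.0526 without male WT PBS 791, 0.0557 without male WT Tau 771, 0.0584 without male KO Tau 713, 0.0657 without female WT Tau 331, 0.110 without female WT Tau 341, 0.0553 without female KO Tau 314 and 0.0598 without female KO Tau 325. Those fits called from 10.45% (without female WT Tau 331) to 19.42% (without female WT Tau 341) of all genes. The unadjusted p of Sema3c in edgeR was 0.00498 with all libraries and 0.0328 without female WT Tau 341. It was at most 0.0103 with any other library left out. Without male KO PBS 752, Nrp1 was called besides Sema3c, in a fit that called 19.6% of all genes. The voom fit of limma with library weights called 6 members (Sema3a, Sema3c, Sema3f, Nrp1, Nrp2 and Plxna2), in a fit that called 45.6% of all genes.

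**Figure D2:**
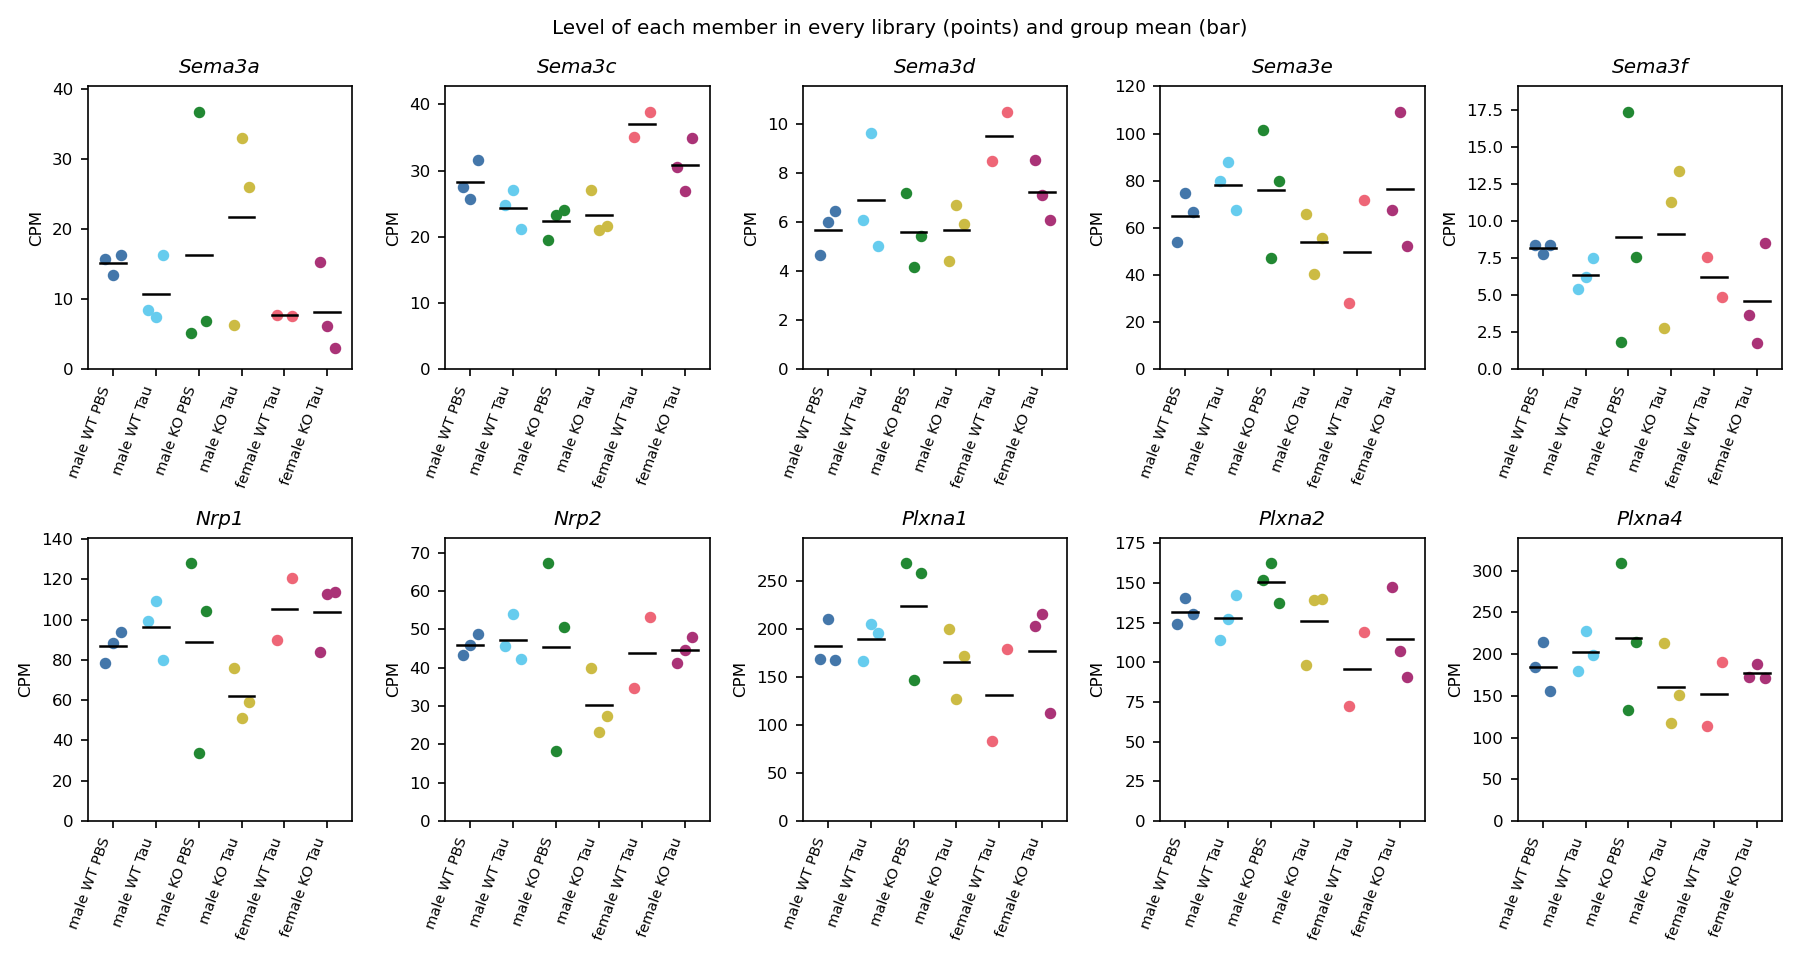
Level of each member in the 6 groups. Points are libraries and bars group means, in CPM of the library total, with an axis from 0 in each panel. Sema3c was highest in female WT Tau (35.1 and 38.9 CPM), and for Sema3a the libraries within male KO PBS ran from 5.28 to 36.8 CPM.

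Among the other ligands, the spread within a group was as wide as that between groups. Sema3a, which collapses growth cones, ran from 3.11 CPM in female KO Tau 325 to 36.8 CPM in male KO PBS 752, an 11.8-fold span, while group means spanned 2.82-fold. It stood at 5.28, 36.8 and 6.96 CPM in male KO PBS (751, 752 and 753) and at 6.31, 33.1 and 26.1 CPM in male KO Tau (711, 712 and 713). The male WT PBS libraries lay between 13.5 and 16.3 CPM, so 1 KO PBS library was far above them and the other two below. Sema3f stood at 1.88, 17.4 and 7.60 CPM in male KO PBS and at 2.78, 11.3 and 13.4 CPM in male KO Tau. Both ligands were thus lowest in 751 and highest in 752 of male KO PBS and lowest in 711 of male KO Tau, but the highest male KO Tau library was 712 for Sema3a and 713 for Sema3f.

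Sema3e, a repellent for axons and vessels, stood at 54.2, 74.8 and 66.6 CPM in male WT PBS and 79.7, 87.8 and 67.5 CPM in male WT Tau. It stood at 102 (751), 47.1 (752) and 80.0 (753) CPM in male KO PBS and at 65.9 (711), 40.5 (712) and 55.5 (713) CPM in male KO Tau, where every value was below male WT Tau. Female WT Tau had 28.1 and 71.8 CPM, and female KO Tau 67.8, 109 and 52.4 CPM, so each sex held libraries at both ends of the range. Sema3d, a ligand known from vessel and heart development, had group means from 5.61 ± 1.52 CPM in male KO PBS to 9.51 ± 1.41 CPM in female WT Tau and libraries from 4.17 to 10.5 CPM.

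Both neuropilins had lower values in every male KO Tau library than in any male WT library, where 14.4% of all genes were free of overlap with male WT PBS, and 12.6% with the tau-injected male WT group, and neither was called by edgeR (adjusted p from 0.825 to 0.927). Nrp1, the main receptor of Sema3a, stood at 78.2, 88.4 and 93.8 CPM in male WT PBS and 99.5, 109 and 79.7 CPM in male WT Tau. It was at 128 (751), 33.9 (752) and 104 (753) CPM in male KO PBS, the highest and the lowest values of the series within 1 group. In male KO Tau it was at 76.2 (711), 51.3 (712) and 59.1 (713) CPM, below all libraries of both male WT groups. Female WT Tau had 90.1 and 121 CPM, and female KO Tau 84.1, 113 and 114 CPM, so every female library was above the male KO Tau range. Nrp2, the main receptor of Sema3f, had its extremes in the same libraries as Nrp1, at 67.3 CPM (751) and 18.2 CPM (752). In male KO Tau it was at 40.0, 23.2 and 27.5 CPM, against 43.3 to 48.9 CPM in male WT PBS and 42.2 to 54.0 CPM in male WT Tau.

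The plexins, whose cytoplasmic domains act on small GTPases, spanned 2.24-fold (Plxna2) to 3.24-fold (Plxna1) over the 17 libraries, against 3.70-fold for Nrp2 and 3.77-fold for Nrp1. Plxna1 ran from 82.8 CPM in female WT Tau 331 to 268 CPM in male KO PBS 751, with group means between 131 ± 68.0 CPM in female WT Tau and 224 ± 67.3 CPM in male KO PBS. Plxna4, a partner of Nrp1 in Sema3a signalling, ran from 114 to 309 CPM in the same libraries as Plxna1, with means between 152 ± 53.8 and 219 ± 87.9 CPM in the same groups. Plxna2, which also serves as a receptor of transmembrane semaphorins, ran from 72.6 CPM in female WT Tau 331 to 162 CPM in male KO PBS 752 and thus had its maximum in a different library from the other plexins. Its means ran from 95.9 ± 32.9 CPM in female WT Tau to 151 ± 12.5 CPM in male KO PBS.

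Within male KO PBS and female WT Tau, Sema3a and Sema3f had the opposite order of libraries from the neuropilins. Within male KO Tau, male WT Tau and female KO Tau, Sema3a had the opposite order, and Sema3f did not have it in full. In male KO PBS, library 752 was the lowest of the group for 6 members (Sema3d, Sema3e, Nrp1, Nrp2, Plxna1 and Plxna4) and the highest for Sema3a, Sema3f and Plxna2. Library 751 was the highest for the same 6 and the lowest for Sema3a, Sema3c and Sema3f. In male KO Tau, library 711 was the highest for 6 members (Sema3c, Sema3e, Nrp1, Nrp2, Plxna1 and Plxna4) and the lowest for the other 4. In male WT Tau, library 773 was the highest for Sema3a, Sema3f and Plxna2 and the lowest for Sema3c, Sema3d, Sema3e, Nrp1 and Nrp2, and of the 2 female WT Tau libraries 331 was the higher for Sema3a and Sema3f and the lower for the other 8 members. The order was not shared by every group. In female KO Tau, library 325 was the highest for Sema3f, Nrp1 and Nrp2 and the lowest for Sema3a and Sema3e. In male WT PBS, library 793 was the highest for Sema3a, Sema3f, Nrp1 and Nrp2. Marker sums moved with this order in the male KO groups. Dentate granule markers were at 684, 158 and 269 CPM in male KO PBS (751, 752 and 753) and at 540, 189 and 256 CPM in male KO Tau (711, 712 and 713), while neocortex markers were at 231, 831 and 301 CPM and at 210, 603 and 608 CPM. Their part in the differences was not tested. In the other groups, dentate sums ran from 308 to 451 CPM in male WT PBS, 395 to 473 in male WT Tau, 444 to 491 in female WT Tau and 214 to 567 in female KO Tau.

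**Figure D3:**
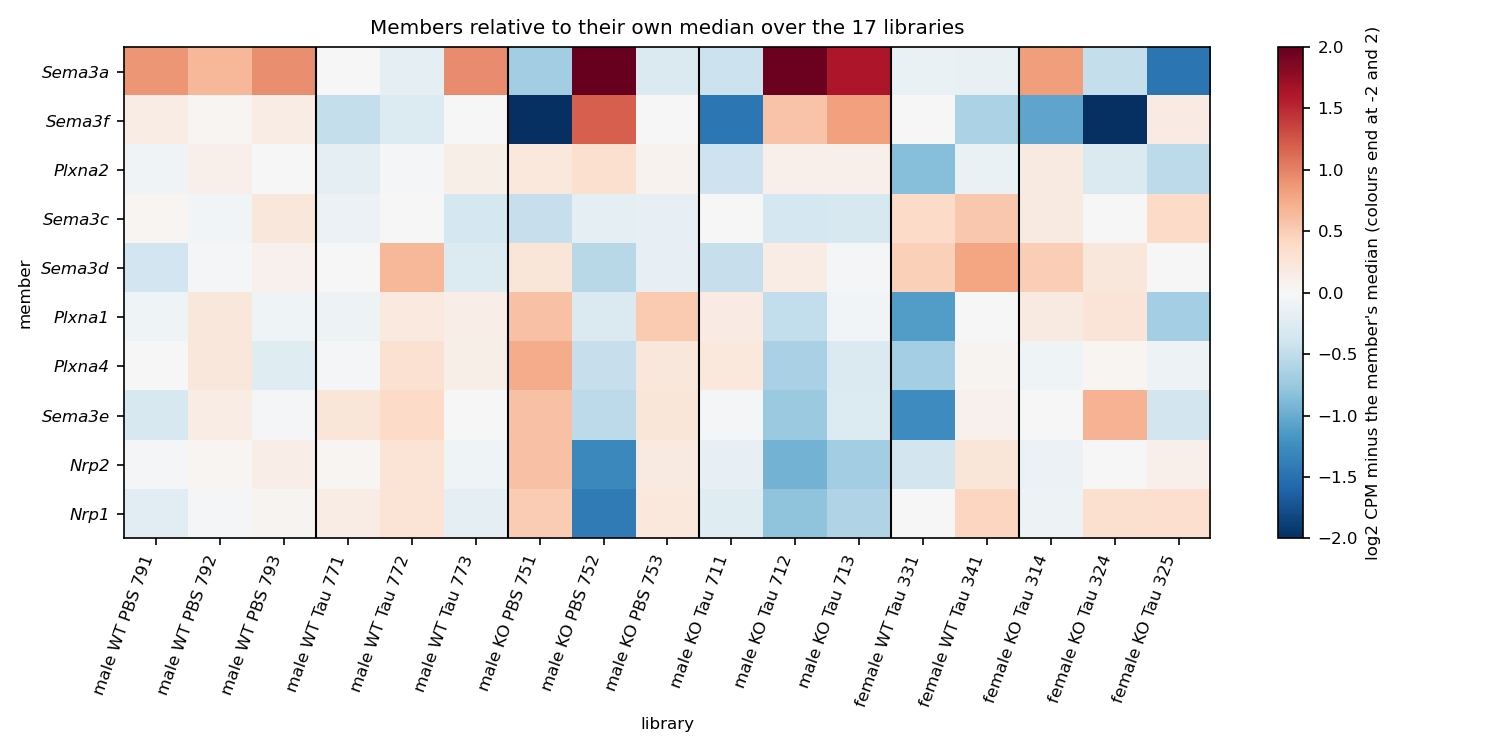
Log2 CPM of each member minus its own median over the 17 libraries. Rows are members, columns are libraries in 6 groups divided by lines, red is higher and blue lower, and colours end at a difference of -2 and 2. Male KO PBS 752 had the highest Sema3a and Sema3f (36.8 and 17.4 CPM) and the lowest Nrp1 and Nrp2 (33.9 and 18.2 CPM).

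The genes whose log2 CPM was most like that of the 3 most variable members over the 17 libraries were named by Pearson's r, as a description. For Sema3a they were Tac2 (r = 0.970), Arhgap32 (0.951) and Tmem132d (0.939). For Sema3f they were Brinp3 (0.958), Grip2 (0.955) and Rnd1 (0.937). For Nrp1 the most alike was the other neuropilin, Nrp2 (0.947), followed by Rnf182 (0.944) and Kcng2 (0.936). Within each library, both genes of a correlation share the makeup of the tissue piece and the depth.

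No member passed the test for an effect of tau in male WT mice. In male WT Tau against male WT PBS, 0 of the 10 members and 0% of 15098 genes were called by edgeR. The unadjusted p of edgeR was under 0.05 for 0 members, and 0 were called by DESeq2 or voom. The log2 fold changes ran from -0.50 (SE 0.71) for Sema3a to 0.26 (SE 0.28) for Sema3d. Sema3f was the single member whose groups did not overlap, at 5.43 to 7.53 CPM with Tau against 7.80 to 8.41 CPM, while 12.2% of all genes did not overlap. The median log2 fold change was 0.03 over the members and -0.01 over all genes.

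No member passed the test for loss of Acss2 without tau either. In male KO PBS against male WT PBS, 0 members were called (0.00662% of all genes, that is 1 gene), and 0 had an unadjusted p under 0.05 in edgeR. The log2 fold changes ran from -0.29 (SE 0.13) for Sema3c, with an unadjusted p of 0.0548 and an adjusted p of 0.999, to 0.35 (SE 0.23) for Plxna1. Sema3c was the single member without overlap, against 11.7% of all genes. DESeq2 and voom called 0 members.

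The comparison that combines both hits set male KO Tau against male WT PBS. No member was called (0.00662% of all genes), and 0 had an unadjusted p under 0.05 in edgeR. The log2 fold changes ran from -0.60 (SE 0.36, adjusted p = 0.825) for Nrp2 to 0.53 (SE 0.70, adjusted p = 0.918) for Sema3a, and 7 of the 10 were below 0. Both neuropilins had groups that did not overlap, 2 of 10 members, against 14.4% of all genes. In male KO Tau against male WT Tau, again 0 members were called (0.00662% of all genes) and 0 had an unadjusted p under 0.05 in edgeR, and the values ran from -0.62 (SE 0.36) for Nrp2 to 1.03 (SE 0.71) for Sema3a. Sema3e, Nrp1 and Nrp2 did not overlap, 3 of 10 members, against 12.6% of all genes. In voom, Sema3a, Sema3c, Nrp1 and Nrp2 had an unadjusted p under 0.05 against male WT PBS, as had 3032 of 15098 genes. Against male WT Tau, Sema3a, Sema3e, Sema3f, Nrp1, Nrp2 and Plxna4 had one, as had 3590 of 15098 genes. None of them was called by voom after adjustment. These comparisons share the male KO Tau libraries.

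Both of these results changed in a fit without the library male KO Tau 711, which also had another test and fewer groups. Fits with fewer of these 3 changes are given below, and the cause of the differences was not tested. With the DESeq2 Wald test on the compared groups alone and without this library, which left 2 against 3 libraries, 5 members were called against male WT PBS, where 7.09% of all genes were called. Nrp1 (log2 fold change -0.65, SE 0.13, adjusted p = 2.27e-05), Nrp2 (-0.85, SE 0.13, adjusted p = 2.51e-08) and Plxna4 (-0.46, SE 0.16, adjusted p = 0.0472) were lower. Sema3a (0.97, SE 0.16, adjusted p = 6.64e-07) and Sema3f (0.60, SE 0.19, adjusted p = 0.0267) were higher. Against male WT Tau, 6 members were called, where 9.49% of all genes were called. Sema3a (1.47, SE 0.47) and Sema3f (0.96, SE 0.22) were again the higher ones, and Sema3e (-0.69, SE 0.16), Nrp1 (-0.78, SE 0.15), Nrp2 (-0.88, SE 0.15) and Plxna4 (-0.58, SE 0.14) the lower ones. With that library kept, DESeq2 on the same groups called 0 members in either comparison, where 0.15% and 0.20% of all genes were called. DESeq2 and voom on larger sets of libraries also called 0 members, and at most 0.091% of all genes. In edgeR on the 4 male groups without the same library, 0 members and 0.00655% of all genes were called in either comparison. With each other male library left out, 0 members and 1 gene were called. The 2 libraries left, 712 and 713, had dentate granule marker sums of 189 and 256 CPM, below the 308 to 473 CPM of the 6 male WT libraries. Their neocortex sums of 603 and 608 CPM were above the 263 to 405 CPM of those libraries. The part of these markers in the calls was not tested.

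**Figure D4:**
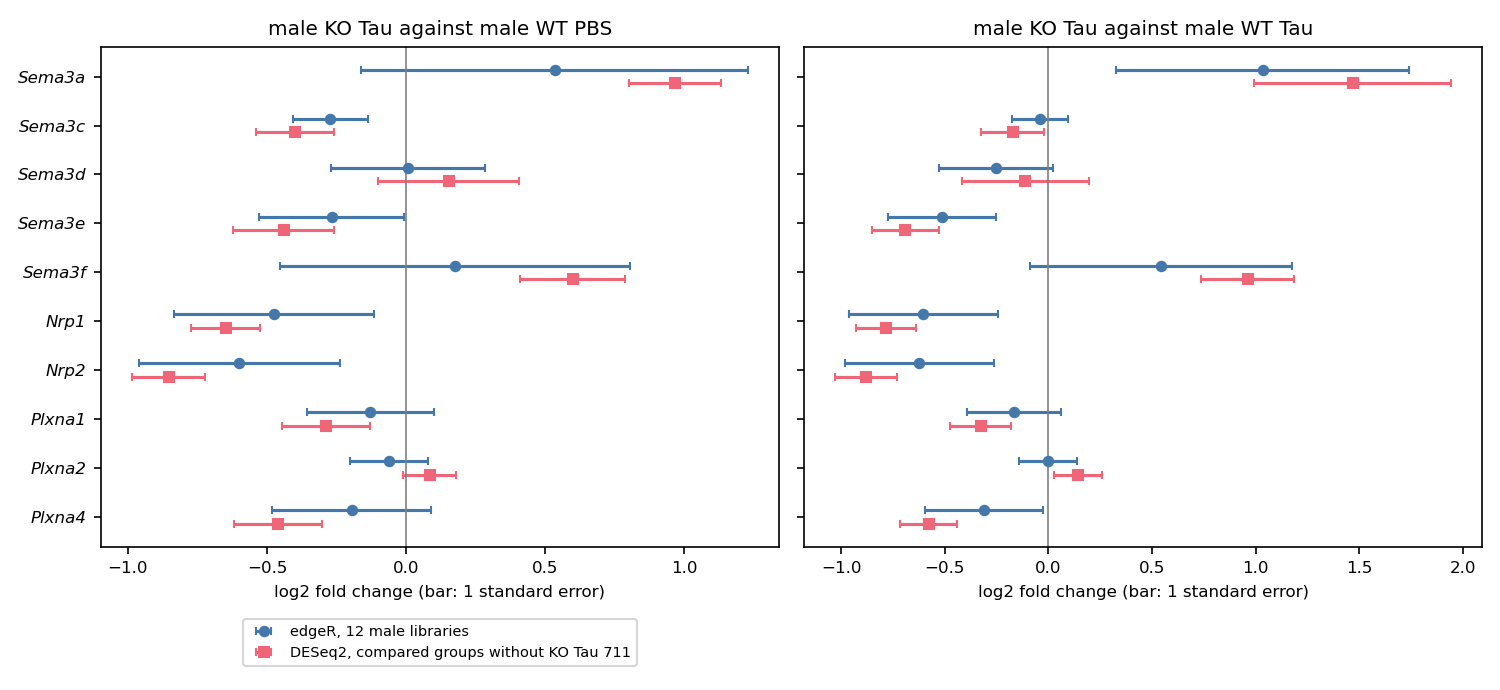
Log2 fold changes of the members in male KO Tau libraries against male WT PBS (left) and against male WT Tau (right), with bars of 1 standard error. Circles are the edgeR fit of the 12 male libraries, in which 0 members were called, and squares the DESeq2 fit of the compared groups without male KO Tau 711, in which 5 and 6 were called. Sema3a and Sema3f lay to the right of 0 and the neuropilins to the left in both fits.

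The remaining male comparisons called no member by edgeR, DESeq2 or voom after adjustment. The unadjusted p was under 0.05 for no member in edgeR. In male KO Tau against male KO PBS it was so for 3 of 10 members in DESeq2 (Sema3e, Plxna1 and Plxna2, the smallest 0.0415) and 1225 of 19991 genes. In voom it was so for 6 members (the smallest 0.00803, for Sema3a) and 1644 of 15098 genes. The genotype by treatment interaction had such a p in DESeq2 for Sema3e (0.0350) and 623 of 19991 genes. In voom it had one for Sema3a, Sema3e, Sema3f, Nrp1, Nrp2, Plxna1 and Plxna4, and for 1961 of 15098 genes. Averaged over treatments, KO against WT had one in voom for Sema3c and Nrp2, and for 2038 of 15098 genes. In male KO Tau against male KO PBS (0% of all genes called) values ran from -0.64 (SE 0.36) for Nrp2 to 0.39 (SE 0.69) for Sema3a, and no member's groups were free of overlap, against 9.01% of all genes. The genotype by treatment interaction, which asks whether the tau effect differed between KO and WT (0% of genes called), ran from -0.79 (SE 0.37, unadjusted p = 0.0529) for Sema3e to 0.89 (SE 0.99) for Sema3a. Averaged over treatments, KO against WT (0.00662% of genes called) ran from -0.29 (SE 0.25) for Nrp2 to 0.59 (SE 0.50) for Sema3a. Averaged over genotypes, Tau against PBS (0% of genes called) ran from -0.31 (SE 0.25) for Nrp2 to 0.12 (SE 0.20) for Sema3d. Sema3a reversed its sign in KO against WT when male KO PBS 752 was left out (-0.11), and in KO Tau against KO PBS without male KO PBS 751 (-0.03) or male KO Tau 712 (-0.04).

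In females, 0 of 10 members passed the test for loss of Acss2 under tau (against 0.00649% of genes), and 0 had an unadjusted p under 0.05 in edgeR. The log2 fold changes ran from -0.38 (SE 0.61) for Sema3f to 0.66 (SE 0.40) for Sema3e, in 3 against 2 libraries. Sema3c was the single member whose groups did not overlap, at 26.9 to 35.0 CPM in KO against 35.1 to 38.9 CPM in WT, and 16.0% of all genes did not overlap. The sex by genotype interaction, which asks whether the KO effect under tau differed between the sexes, called 0 members (0% of genes). Sema3e (1.17, SE 0.53, unadjusted p = 0.0491) and Nrp1 (0.62, SE 0.28, unadjusted p = 0.0483) were the 2 members with an unadjusted p under 0.05 in edgeR, where 2.94% of all genes had one, and both had an adjusted p of 0.978. The lowest value was that of Sema3f (-0.92, SE 0.81). DESeq2 and voom called 0 members in either comparison.

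Sema3c rose in female against male Tau libraries. Averaged over genotypes its log2 fold change was 0.44 (SE 0.10, adjusted p = 0.0157), the highest of the members. It was the single member called, 1 of 10, where 23.8% of the 15419 genes were called and 11.4% were called higher in females. It was called with each of the 11 libraries left out in turn, at adjusted p from 0.00182 to 0.0496. Within WT Tau alone the difference was 0.53 (SE 0.15, adjusted p = 0.116) and within KO Tau alone 0.35 (SE 0.14, adjusted p = 0.126). Neither was past the threshold, where 0.370% and 6.33% of all genes were called. Nrp1 stood at 0.37 (SE 0.14, unadjusted p = 0.0218, adjusted p = 0.0729) and the lowest value was that of Sema3a (-1.01, SE 0.47, adjusted p = 0.134). Without male KO Tau 711, Sema3a (-1.21, SE 0.37) and Nrp1 (0.48, SE 0.13) were called besides Sema3c, 3 of 10 members where 40.7% of all genes were called. Without female KO Tau 314, Sema3a (-1.42, SE 0.44) was called besides it, 2 of 10 members where 21.7% of all genes were called. The voom fit called 5 members (Sema3a, Sema3c, Sema3f, Nrp1 and Plxna2) and 40.1% of all genes, and DESeq2 without male KO Tau 711 called 4 (Sema3a, Sema3c, Sema3f and Nrp1) and 37.1%. The sexes carry different series of library numbers, so sex and whatever those series stand for cannot be told apart. Markers of other cells also differed, with 4 of 6 mural cell, 4 of 7 endothelial and 3 of 5 astrocyte markers called higher in females and 5 of 8 inhibitory neuron and 4 of 8 neocortex markers called lower. The mural sum did not overlap, at 161 to 232 CPM in female and 97.8 to 144 CPM in male Tau libraries. The endothelial sum did, at 206 to 304 CPM in female and 154 to 232 CPM in male Tau libraries. The part of these cells in the Sema3c difference was not tested.

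**Figure D5:**
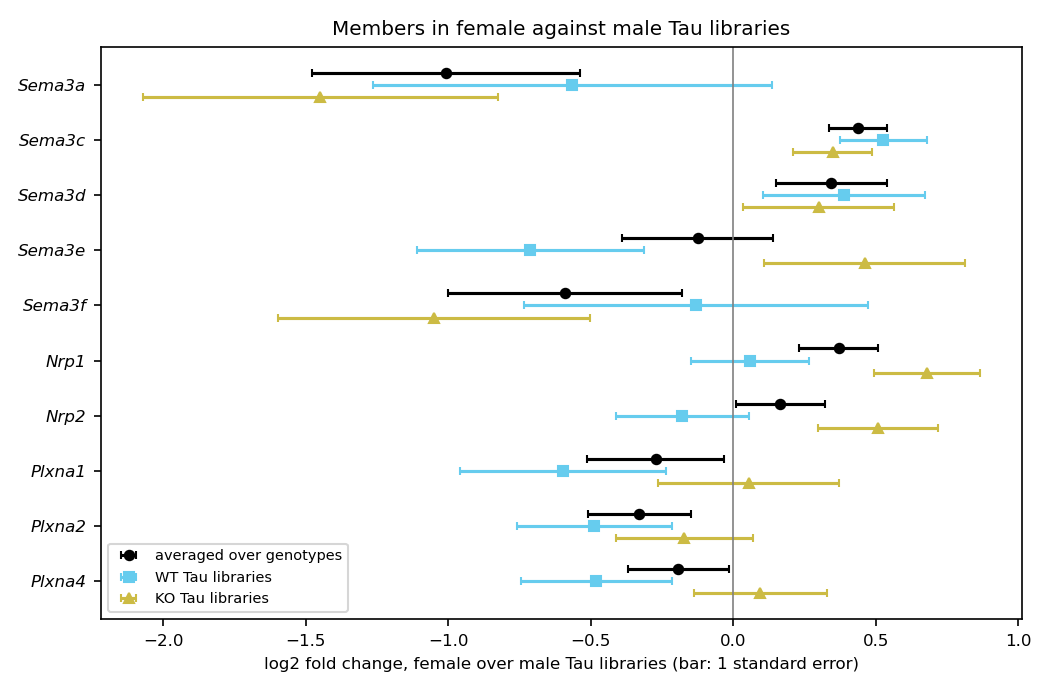
Log2 fold changes of the members in female over male Tau libraries, with bars of 1 standard error. Circles average the genotypes, squares are WT Tau and triangles KO Tau. Sema3c lay at 0.44 on average, at 0.53 in WT and at 0.35 in KO, and Sema3a had the lowest average, -1.01.

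Of 46 other genes of the pathway, 9 were called in the test for any difference among the 6 groups, 19.6% of them against 19.0% of all genes, and 0 in any comparison within a sex or in an interaction. In female against male Tau libraries 20 were called, 43.5% of them against 23.8% of all genes. The 3 that rose were the ligand Sema3g and the effectors Farp1 and Fes, and 17 fell. Their median log2 fold change was -0.24, against -0.01 over all genes. Among the 2 other class 3 ligands, Sema3g, a ligand known from endothelium, was higher (0.71, SE 0.18, adjusted p = 0.0182), and Sema3b was not called (-0.46, SE 0.45). Sema3g stood at 9.06 ± 1.35 CPM (n = 2) in female WT Tau and 7.64 ± 2.03 (n = 3) in female KO Tau, against 4.86 ± 0.828 and 4.86 ± 1.02 CPM (n = 3 each) in the male WT Tau and KO Tau groups.

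Of 6 other plexins, Plxna3, the remaining plexin of the A type, was lower (-0.39, SE 0.12, adjusted p = 0.0345), and Plxnb1, a receptor of class 4 semaphorins, was not called (0.36, SE 0.15, adjusted p = 0.0970). Of 13 membrane-bound semaphorins, 8 were lower (Sema4a, Sema4c, Sema4f, Sema5b, Sema6a, Sema6b, Sema6c and Sema7a), among them Sema5b (-0.77, SE 0.10, adjusted p = 0.00247) and Sema4f (-0.59, SE 0.14, adjusted p = 0.0147). Of 4 co-receptors, the adhesion molecule L1cam, which joins Nrp1 in Sema3a reception, was lower (-0.68, SE 0.22, adjusted p = 0.0450) and Kdr, a receptor of vascular endothelial growth factor, was not called (-0.02, SE 0.16). Of 21 cytoplasmic effectors, 2 were higher and 7 lower (Dpysl2, Dpysl4, Crmp1, Mical2, Cdk5r1, Pak1 and Cfl1). These included Mical2, an enzyme that oxidises actin (-0.61, SE 0.13, adjusted p = 0.0111), and Dpysl4, of the collapsin response mediator proteins (-0.60, SE 0.15, adjusted p = 0.0189).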

How the data were processed

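Per the labels and the study's methods, the authors aligned poly(A) RNA reads to mm10 (GRCm38) with RNA-STAR 2.5.2 and counted reads over exons with HTSeq 0.9.1 in reverse-stranded mode. The deposited values were unnormalized counts for each gene symbol, and the annotation release is not given in the sources used here. For testing, edgeR 4.0.16 was used in R 4.3.3 with its quasi-likelihood F-test (TMM factors, filterByExpr, Benjamini-Hochberg adjustment over all genes, threshold 0.05, two-sided), with group as the single term. The test for any difference used the 17 libraries, the male comparisons the 12 male libraries and the comparisons with females the 11 Tau libraries. Alternatives were DESeq2 1.42.0, limma 3.58.1 (voom with library weights), other scalings, filters and sample sets, and each library left out in turn. Lengths came from the GENCODE vM21 annotation of GRCm38. Scripts were tested on simulated counts. Libraries carry the number of their label and are described there as biological replicates. Of 136 pairs of libraries none agreed within sampling noise, with a chi-square per gene of at least 3.60. A count of 0 allows up to 3 counts, or 0.134 to 0.212 CPM, which covers counting error only. Always named were the 10 members. Fold changes were given for members with an unadjusted p under 0.05 and for the lowest and highest value, library values for Sema3c, Sema3e and members with such a p, and from each pathway list the 2 genes with the smallest p over the groups. Further library values of Sema3a, Sema3f and Nrp2 were chosen after their values were seen. The members and lists were chosen with earlier results of these data known.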

Additional observations from a re-analysis of the deposited data

How the results depend on the processing

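Of 24 named log2 fold changes under 447 alternative values, 6 in 5 changes reversed, all with 1 library left out. With each library left out in turn, Sema3d ranged from -0.052 (without male WT Tau 772) to 0.45 in male WT Tau against male WT PBS and from -0.040 (without male WT Tau 772) to 0.23 in male Tau against PBS. Sema3a ranged from -0.037 to 1.79 in male KO Tau against male KO PBS and from -0.11 to 0.82 in male KO against WT, and Sema3f ranged from -1.09 to 0.011 (without female KO Tau 324) in female KO against WT. Of the counts of members called, 210 stayed within 1.5 times the main count and 17 did not. In the test over 6 groups the count was 1, and 6 with voom. With 1 library left out the count was from 0 to 2, in fits that called 10.45% to 30.2% of all genes. In female against male Tau libraries it was 1, 5 with voom and 4 with DESeq2 without male KO Tau 711. With 1 library left out it was from 1 to 3, in fits that called 3.99% to 40.7% of all genes. It was 0 within WT (0.370% of all genes called) and 0 within KO (6.33%), the last 2 added after seeing the data. With DESeq2 without male KO Tau 711 it was 5 in place of 0 for male KO Tau libraries against male WT PBS and 6 in place of 0 against male WT Tau. The cause was not tested. No paired analysis was possible because the replicate numbers are not shared between groups. The fewest reads behind a member's value were 26, for Sema3f in female KO Tau 324.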
